A study of Homo sapiens with 16 samples.

Results

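Lipid droplet genes were followed in 4 human lines of clear cell renal cell carcinoma (ccRCC) and across guides against KDM5C and KDM5D. The set held 10 genes of the 57773 in the count table, chosen by name because clear cell tumours take their look from stored lipid: CD36 for uptake, DGAT1 and DGAT2 for synthesis, PLIN2 and PLIN3 for the droplet coat, PNPLA2, G0S2, HILPDA and MGLL for release, and CPT1A for oxidation. All 10 were found in the table, and 9 had enough reads to be tested.

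RNA was sequenced from the established lines A498, CAKI-2, 769-P and 786-O after lentiviral delivery of Cas9 with a guide RNA, as infected populations and not as single-cell clones. Each line had 1 library with a control guide (sgCtrl) and 2 libraries with guides against KDM5C, a histone H3K4 demethylase gene on chromosome X (sgKDM5C, guides 4 and 5). The 786-O and CAKI-2 lines also had 2 libraries with guides against KDM5D, its chromosome Y homologue (sgKDM5D, guides 2 and 4). This gave 16 libraries in 10 groups, in which the 2 guides against a gene were the replicates and every comparison with a control rested on 1 control library.

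Cells store surplus fatty acids as triglyceride in lipid droplets, which bud from the endoplasmic reticulum and carry a protein coat. Fatty acids enter through carriers such as CD36, are built into triglyceride by the DGAT enzymes, are guarded by perilipins and are freed again by the lipase ATGL, the product of PNPLA2, which G0S2 and HILPDA inhibit. The freed chains are either re-esterified or passed into mitochondria through CPT1A, and in ccRCC the HIF pathway is known for shifting this balance towards storage.

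Library depth was 23.4M to 41.6M counts (M for 10 to the power 6). The targeted KDM5C transcript stood at 26.2% to 57.3% of the sgCtrl level of the same line in the 8 sgKDM5C libraries, whereas KDM5D stood at 76.2% to 103% of it in the 4 sgKDM5D libraries, so the transcript gives little check of that label. The renal and ccRCC markers PAX8, PAX2, KRT8, KRT18, CDH16 and VIM were read in every library, and the 7 markers summed to 2706 to 4176 CPM, while CA9 reached 9.53 CPM at most and was above 2 counts only in A498. The adipocyte list summed to 0.110 to 4.11 CPM, with ADIPOQ and LEP at 2 counts or fewer in any library. Macrophage markers summed to 6.28 to 9.04 CPM in 786-O, nearly all from CSF1R, and to under 1 CPM elsewhere, with PTPRC at 2 counts or fewer. The 786-O sgKDM5C 4 library stood farthest from its control, with a spread of log2 ratios over genes of 0.531 (SD) against 0.258 to 0.504 in the other guide libraries.

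The levels below are CPM, counts scaled to a common library total with TMM, a factor that lines libraries up on the bulk of their genes. Differences are log2 fold changes with their SE from the edgeR quasi-likelihood test, and a gene was called at a Benjamini-Hochberg adjusted p under 0.05 over all 20175 genes tested. The level of a line is the mean over its sgCtrl and sgKDM5C libraries (n = 3). Fold changes between lines instead weigh the sgCtrl group mean and the sgKDM5C group mean equally. For genes outside the members, the mean CPM of a line is over all its libraries, with sgKDM5D included. These are averages over a population, in which fewer expressing cells and less RNA per cell cannot be told apart.

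The coat gene PLIN2, the lipase gene PNPLA2 and the lipase inhibitor gene G0S2 were all highest in A498, where the other coat gene PLIN3 was lowest. Near-absence marked other lines: 769-P had almost no G0S2, and CAKI-2 and 769-P had little DGAT2. No member was called in any comparison of guides, where 0.0% to 0.0644% of all genes tested were called. The F-test over the lines called 90.5% of all genes.

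The promoters of 3 genes are shown: PLIN2 and G0S2, high in A498, and PLIN3, low there. Of the members whose windows are reported here, these held the most matches to the sequence marked below. They were not the 3 with the largest line differences, as DGAT2 differed by more than PLIN3. The 250 bases before the RefSeq start site are given on the coding strand (GRCh38.p14), with each match to the hypoxia response core, spelled ACGTG and alternatively spelled GCGTG, on either strand, in capitals. PLIN2 is at chr9:19127493-19127742 (minus strand), PLIN3 at chr19:4867668-4867917 (minus strand) and G0S2 at chr1:209675162-209675411 (plus strand).
PLIN2: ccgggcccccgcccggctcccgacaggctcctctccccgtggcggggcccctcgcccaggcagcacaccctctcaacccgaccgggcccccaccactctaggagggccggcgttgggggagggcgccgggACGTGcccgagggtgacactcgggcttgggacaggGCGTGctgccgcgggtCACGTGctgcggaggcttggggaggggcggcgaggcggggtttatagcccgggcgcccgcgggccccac
PLIN3: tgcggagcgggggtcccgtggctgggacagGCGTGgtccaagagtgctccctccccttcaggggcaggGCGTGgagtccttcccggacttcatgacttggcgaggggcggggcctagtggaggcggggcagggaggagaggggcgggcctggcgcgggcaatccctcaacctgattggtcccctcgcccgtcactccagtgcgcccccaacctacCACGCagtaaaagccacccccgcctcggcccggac
G0S2: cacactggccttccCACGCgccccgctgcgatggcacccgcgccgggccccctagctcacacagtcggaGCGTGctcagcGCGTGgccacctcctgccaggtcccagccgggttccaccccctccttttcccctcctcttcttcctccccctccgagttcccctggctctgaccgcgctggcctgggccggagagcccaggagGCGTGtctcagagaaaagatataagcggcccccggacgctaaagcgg

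The core was found at 3 places in PLIN2, the third being the palindrome CACGTG 69 to 64 bases before the start, where the 2 strands overlap. PLIN3 also held 3 places and G0S2 held 4. Of 35114 RefSeq windows of this length, 43.2% held at least 1 place, 5.44% held 3 or more and 1.76% held 4 or more, while 6.35% held CACGTG. The form ACGTG occurred in 18.5% of windows and, of these 3 genes, in PLIN2 alone. GC content was 78.0% for PLIN2, 70.8% for PLIN3 and 69.2% for G0S2, and its part in these matches was not tested. No match was found in the windows of PNPLA2 and CPT1A, and 1 of the 6 CD36 windows held 1. No window matched HILPDA, DGAT2 or MGLL, and DGAT1 is not reported here. A match is a string of letters and not a bound site. Of the 3 genes shown, PLIN2 and G0S2, high in A498, and PLIN3, low there, each held several. PNPLA2, also highest in A498, held none in its window.

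CD36, the scavenger receptor that carries long-chain fatty acids across the plasma membrane (chromosome 7, 79998891 to 80308593 in GRCh37), was barely read in any line. It had 40 counts in all over the 16 libraries, at most 6 in 1 library, and 0 in the sgKDM5D 4 libraries of 786-O and CAKI-2, which allows up to 0.110 CPM in the first and 0.106 CPM in the second. Per line, 786-O summed to 13 counts, CAKI-2 to 11, A498 to 11 and 769-P to 5, or 0.0920 CPM (95% exact Poisson interval 0.0490 to 0.157), 0.0676 CPM (0.0337 to 0.121), 0.144 CPM (0.0718 to 0.257) and 0.0651 CPM (0.0212 to 0.152). These intervals overlap for every pair of lines and cover counting error only. CD36 was therefore left out of the tests, and no difference between lines or guides was detectable at this depth.

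DGAT1, one of the enzymes that add the last acyl chain of triglyceride, varied least. It ranged from 26.6 to 33.4 CPM in 786-O, 19.9 to 24.4 CPM in CAKI-2, 27.9 to 36.9 CPM in A498 and 20.6 to 27.1 CPM in 769-P. A498 exceeded CAKI-2 by 0.60 (log2, SE 0.15, adjusted p = 0.00231) and 769-P by 0.46 (SE 0.15, adjusted p = 0.0117), and 786-O exceeded CAKI-2 by 0.44 (SE 0.15, adjusted p = 0.0173). The pairs A498 and 786-O (adjusted p = 0.334), 786-O and 769-P (adjusted p = 0.107) and 769-P and CAKI-2 (adjusted p = 0.424) were not separated. With no filter on low genes, the difference between 769-P and A498 was not called (adjusted p = 0.0965), and without the guide 5 libraries 769-P was called below 786-O (-0.43, adjusted p = 0.0069), with the spread taken from the sgKDM5D pairs alone. DGAT1 shares 137 exon bases with HSF1 on the other strand, which had 65883 counts over the 16 libraries against 12489 for DGAT1, and 444 bases with a lncRNA of the same strand that had 290. Whether reads were counted by strand is not given in the sources used here, so its level carries that doubt.

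DGAT2 encodes the other acyltransferase, unrelated in sequence and known for packing newly made fatty acids into droplets (chromosome 11, 75470557 to 75512580). In 786-O it stood at 16.1 CPM in sgCtrl, 21.4 and 13.9 CPM in sgKDM5C (guides 4 and 5) and 14.5 and 14.4 CPM in sgKDM5D (guides 2 and 4). In A498 it stood at 14.5 CPM in sgCtrl and at 12.3 and 11.8 CPM in sgKDM5C. CAKI-2 read 1.17 CPM in sgCtrl, 1.32 and 2.003 CPM in sgKDM5C and 0.585 and 0.777 CPM in sgKDM5D. The 769-P libraries, in the order of A498, read 2.06, 1.85 and 3.04 CPM. The 4 lines thus formed a high and a low pair with no overlap between them. DGAT2 was 11.9-fold higher in 786-O than in CAKI-2 (adjusted p = 5.28e-08), 7.53-fold higher than in 769-P (adjusted p = 4.79e-07) and 9.36-fold higher in A498 than in CAKI-2 (adjusted p = 1.37e-07). Within the pairs, 786-O and A498 did not separate (adjusted p = 0.186), and the 769-P excess over CAKI-2 of 0.67 (log2, SE 0.28) stood at an adjusted p of 0.0511 and passed the threshold under 4 of its 9 alternatives.

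PLIN2 encodes the perilipin that coats droplets in most cells outside fat tissue and is degraded when not bound to them (chromosome 9, 19108373 to 19149288). In A498 it stood at 1227 CPM in sgCtrl and at 1353 and 1532 CPM in sgKDM5C. In 786-O the values were 101 CPM in sgCtrl, 160 and 123 CPM in sgKDM5C, and 136 and 118 CPM in sgKDM5D. In CAKI-2 they were 142 CPM in sgCtrl, 129 and 132 CPM in sgKDM5C, and 146 and 132 CPM in sgKDM5D, and in 769-P 133, 111 and 158 CPM. Every A498 library lay far above every library of the other lines, and those lines overlapped one another. PLIN2 was 11.1-fold higher in A498 than in 786-O (adjusted p = 6.34e-10), 9.78-fold higher than in CAKI-2 (adjusted p = 1.72e-09) and 9.95-fold higher than in 769-P (adjusted p = 8.06e-10). The other pairs differed by 0.02 to 0.19 on the log2 scale, none of them called. Without the guide 4 libraries of all lines, 786-O was below CAKI-2 by 0.30 (SE 0.11, adjusted p = 0.0317) and below 769-P by 0.38 (SE 0.11, adjusted p = 0.0124), with the spread taken from the sgKDM5D pairs alone. The direction turned in other fits, to -0.06 for 769-P against 786-O without the guide 5 libraries, and to -0.08 for that pair and -0.12 for CAKI-2 against 786-O with the sgKDM5C libraries alone, none of them called.

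PLIN3 encodes a perilipin that moves from the cytosol to young droplets (chromosome 19, 4838353 to 4867706), and here A498 was the lowest line. A498 had 90.9 CPM in sgCtrl and 82.0 and 107 CPM in sgKDM5C. CAKI-2 had 159 CPM in sgCtrl, 163 and 166 CPM in sgKDM5C, and 170 and 130 CPM in sgKDM5D. 786-O had 303 CPM in sgCtrl, 190 and 277 CPM in sgKDM5C, and 254 and 271 CPM in sgKDM5D, and 769-P had 247, 219 and 262 CPM. The A498 libraries were below all others, and 786-O and 769-P overlapped. PLIN3 was lower in A498 than in CAKI-2 by 0.80 (log2, SE 0.17, adjusted p = 0.000761), than in 769-P by 1.40 (SE 0.17, adjusted p = 4.63e-06) and than in 786-O by 1.52 (SE 0.17, adjusted p = 2.15e-06). CAKI-2 was also below 786-O by 0.72 (SE 0.17, adjusted p = 0.00176) and below 769-P by 0.59 (SE 0.17, adjusted p = 0.00635).

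**Figure D1:**
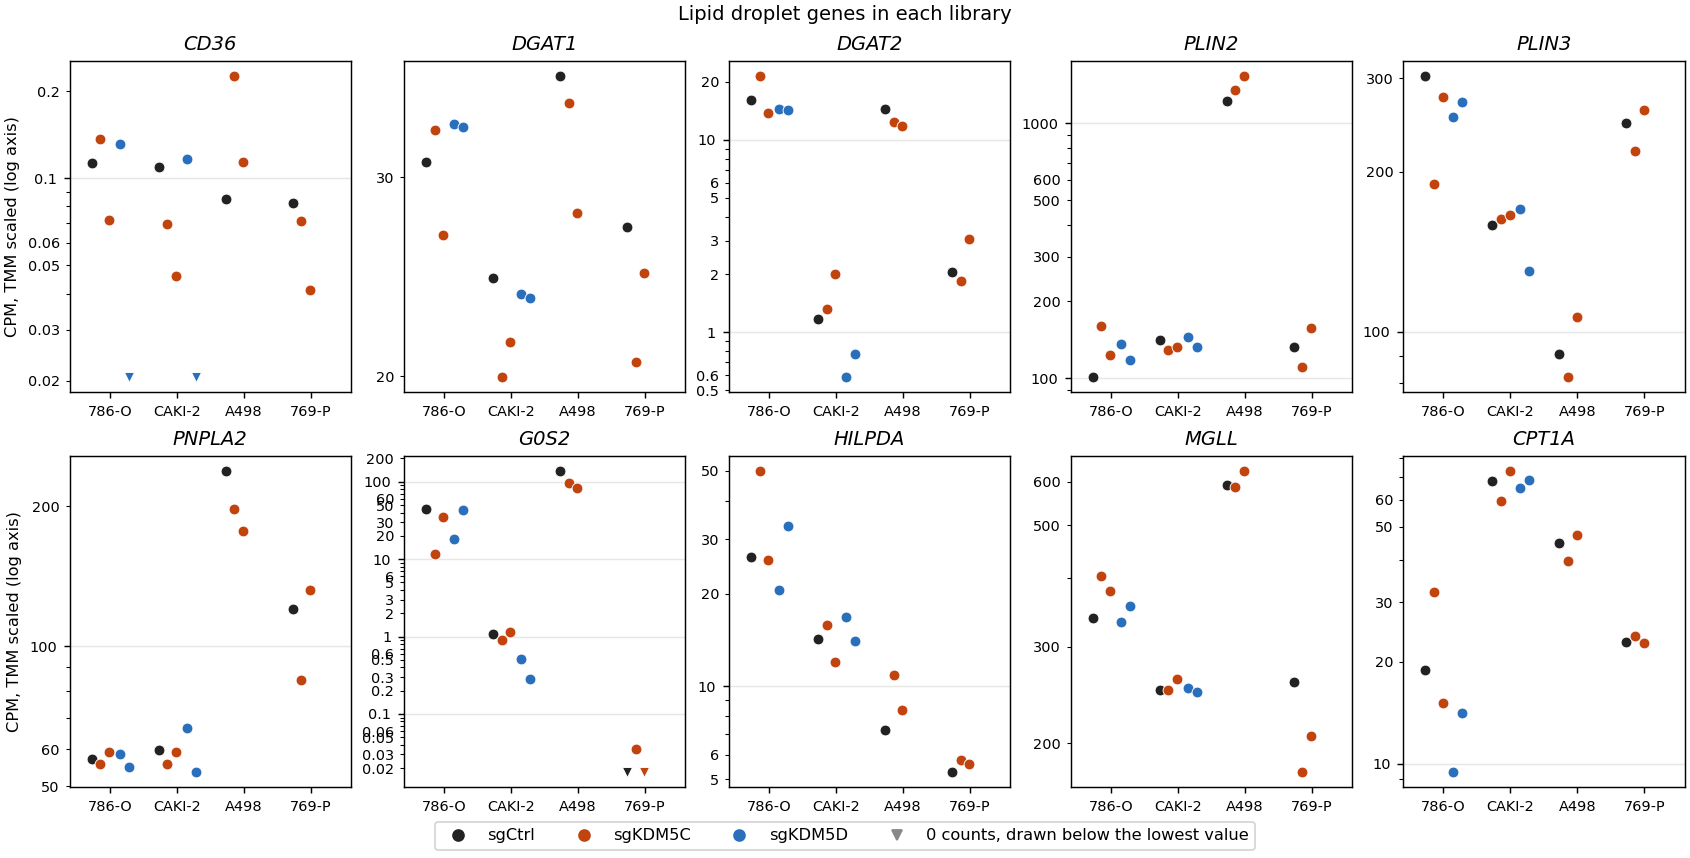
Each panel plots 1 gene in all 16 libraries as TMM-scaled CPM on a log axis, grouped by cell line and coloured by guide target, with triangles for libraries with 0 counts. PLIN2 sits at 1227 to 1532 CPM in A498 and at 101 to 160 CPM elsewhere, DGAT2 forms a high and a low pair of lines, and G0S2 is almost unread in 769-P.

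PNPLA2 encodes adipose triglyceride lipase, which takes the first acyl chain off triglyceride (chromosome 11, 818914 to 825573). It stood at 239 CPM in sgCtrl and 197 and 177 CPM in sgKDM5C of A498, and at 120, 84.6 and 132 CPM in 769-P. In 786-O it ranged from 55.02 to 59.2 CPM and in CAKI-2 from 53.6 to 66.6 CPM. A498 was above 769-P and 769-P above the other lines without overlap, while 786-O and CAKI-2 overlapped. PNPLA2 was higher in A498 than in 769-P by 0.89 (log2, SE 0.16, adjusted p = 0.000171), and higher in 769-P than in CAKI-2 by 0.96 (SE 0.16, adjusted p = 0.000116) and than in 786-O by 0.99 (SE 0.16, adjusted p = 0.00013). Between 786-O and CAKI-2 the difference was 0.03 (SE 0.16, adjusted p = 0.87).

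G0S2 encodes a small protein that binds and inhibits that lipase (chromosome 1, 209848757 to 209849735). In A498 it stood at 139 CPM in sgCtrl and at 96.9 and 83.3 CPM in sgKDM5C. In 786-O it stood at 45.001 CPM in sgCtrl, 11.5 and 35.4 CPM in sgKDM5C, and 18.5 and 42.6 CPM in sgKDM5D. CAKI-2 had 1.09 CPM in sgCtrl, 0.907 and 1.15 CPM in sgKDM5C, and 0.507 and 0.283 CPM in sgKDM5D. No 2 lines overlapped, and 769-P lay lowest with 1 count in 1 of its 3 libraries and 0 in the others, which allows up to 0.123 CPM in either. G0S2 was 3.44-fold higher in A498 than in 786-O (adjusted p = 0.000537) and 30.3-fold higher in 786-O than in CAKI-2 (adjusted p = 5.35e-07). The summed counts of 786-O were 2303 times those of 769-P per unit of depth (95% exact interval 413 to 90974, from 4241 counts against 1), and those of CAKI-2 were 64.6 times (11.4 to 2571, from 137 counts against 1). All 3 comparisons with 769-P were called. The wide intervals come from its single count.

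The ratio of lipase to inhibitor therefore also differed by line. PNPLA2 to G0S2 per exon length was 0.394 to 0.486 over the A498 libraries, 0.291 to 1.11 over the 786-O libraries and 11.8 to 43.4 over the CAKI-2 libraries. In 769-P it was 544 in the 1 library with a G0S2 count, a single count, and had no value in the other two. The A498 range lies within that of 786-O. All A498 libraries had more G0S2 than PNPLA2 transcript per length, as had every 786-O library except sgKDM5C 4 (1.11). All CAKI-2 libraries had the opposite. HILPDA, which inhibits the same lipase, is not part of this ratio.

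HILPDA encodes a HIF-induced droplet protein that inhibits the same lipase (chromosome 7, 128095903 to 128098472). It ranged from 20.5 to 50.04 CPM in 786-O, 11.9 to 16.8 CPM in CAKI-2, 7.23 to 10.8 CPM in A498 and 5.27 to 5.76 CPM in 769-P, so its order differed from that of G0S2. No 2 lines overlapped. HILPDA was higher in 786-O than in CAKI-2 by 1.17 (log2, SE 0.26, adjusted p = 0.00118), and lower in A498 than in CAKI-2 by 0.75 (SE 0.26, adjusted p = 0.022). The latter was not called with the level of a line taken from its sgKDM5C libraries alone (adjusted p = 0.148). The excess of A498 over 769-P was 0.61 (SE 0.28, adjusted p = 0.0632) and was called under 6 of its 9 alternatives (adjusted p 0.0237 to 0.0724 over the 9). The highest value, 50.04 CPM, came from the 786-O sgKDM5C 4 library.

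MGLL encodes monoacylglycerol lipase, which frees the last acyl chain (chromosome 3, 127407905 to 127771033). It ranged from 587 to 628 CPM in A498, 333 to 404 CPM in 786-O, 248 to 262 CPM in CAKI-2 and 177 to 258 CPM in 769-P. A498 and 786-O were apart from all others, and CAKI-2 and 769-P overlapped. MGLL was higher in A498 than in 786-O by 0.72 (log2, SE 0.11, adjusted p = 4.49e-05) and higher in 786-O than in CAKI-2 by 0.53 (SE 0.11, adjusted p = 0.000777). Between 769-P and CAKI-2 the difference was -0.18 (SE 0.11, adjusted p = 0.158), and it was called with the sgKDM5C libraries alone (-0.41, adjusted p = 0.0117).

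CPT1A encodes the liver-type carnitine palmitoyltransferase, which gates entry of long chains into mitochondria (chromosome 11, 68522088 to 68611878). It ranged from 59.5 to 73.1 CPM in CAKI-2, 39.6 to 47.4 CPM in A498, 22.7 to 23.9 CPM in 769-P and 9.46 to 32.1 CPM in 786-O. CAKI-2 exceeded A498 by 0.61 (log2, SE 0.23, adjusted p = 0.0334) without overlap, and A498 exceeded 769-P by 0.94 (SE 0.24, adjusted p = 0.00282). With the sgKDM5C libraries alone, the first was not called (adjusted p = 0.0638). The 769-P and 786-O lines overlapped (0.13, SE 0.24, adjusted p = 0.704), and the direction depended on the libraries. It was 0.44 (adjusted p = 0.0456) without the guide 4 libraries of all lines, with the spread taken from the sgKDM5D pairs alone, -0.07 (adjusted p = 0.757) without those of guide 5 and -0.02 (adjusted p = 0.988) with the sgKDM5C libraries alone.

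To compare members with one another, CPM were divided by exon length in kb. PLIN2 led in A498 with 273.5 ± 30.6 CPM per kb (SD, n = 3), followed by G0S2 with 121 ± 32.9. PLIN3 led in the other lines, with 93.7 ± 21.6 in 786-O, 59.3 ± 1.18 in CAKI-2 and 88.7 ± 7.92 in 769-P. PLIN2 to PLIN3 per length was 7.38 to 9.02 over the A498 libraries and 0.182 to 0.556 over all others. PLIN2 made up 42.8% to 54.5% of the summed level per length of the 10 members in A498 and 7.98% to 19.8% in the other lines. CD36 ranked last in 786-O, CAKI-2 and A498. In 769-P its order against G0S2 was not resolved, with 5 counts against 1 over the line.

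**Figure D2:**
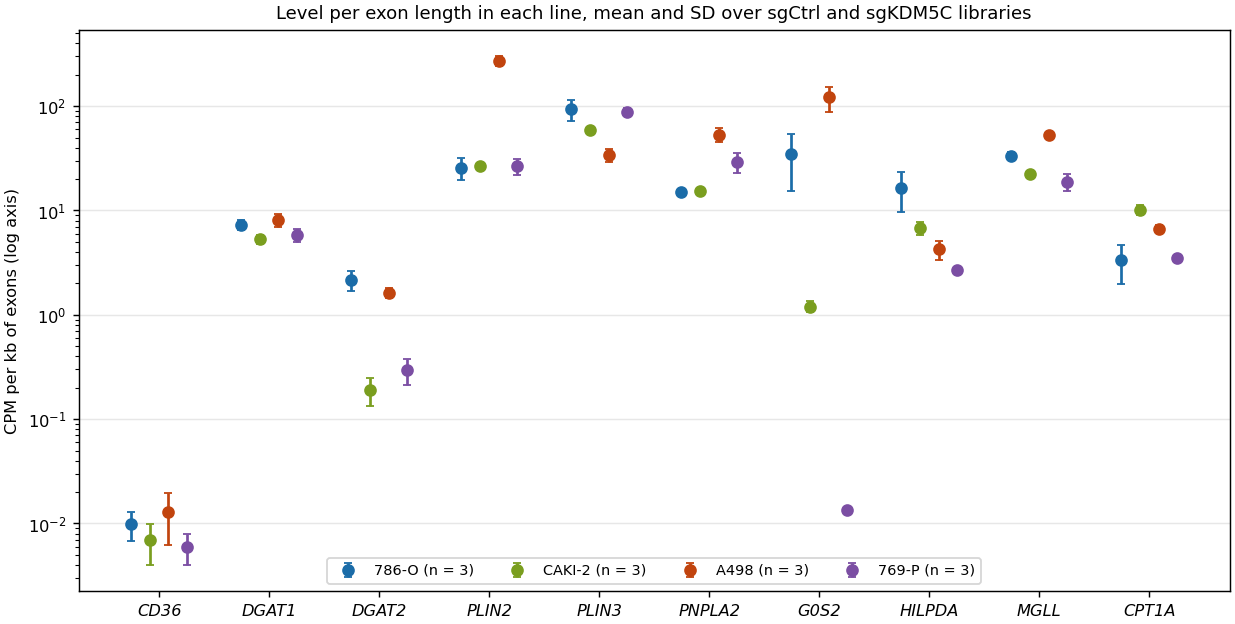
Points give the mean level per exon length in CPM per kb on a log axis for each gene and line over the sgCtrl and sgKDM5C libraries, with bars for the SD (n = 3), left out where the SD exceeds the mean. PLIN2 tops A498 at 273.5 CPM per kb and PLIN3 tops the other lines.

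In an F-test over the 4 lines, 9 of the 9 members tested were called, where 90.5% of all genes tested were called, so their number is near the background. CAKI-2 against 786-O called 1 member higher (background 34.9%) and 6 lower (background 28.4%), 7 of 9 in all (background 63.3%). A498 against 786-O called 5 higher (37.8%) and 2 lower (30.9%), in all against 68.7% of genes. 769-P against 786-O called 1 higher (25.4%) and 4 lower (24.5%), in all against 50.0%. A498 against CAKI-2 called 6 higher (32.0%) and 3 lower (33.8%), all 9 against 65.8%. 769-P against CAKI-2 called 2 higher (28.4%) and 3 lower (35.4%), in all against 63.8%, and 769-P against A498 called 1 higher (31.6%) and 7 lower (38.2%), in all against 69.9%. The median log2 fold change of the members was 0.72 in A498 against 786-O and 1.25 in A498 against CAKI-2, beside 0.17 and -0.01 over all genes. In 769-P against A498 it was -0.94 beside -0.16. In the pairs without A498 it was -0.53 beside 0.11 for CAKI-2 against 786-O, -0.30 beside 0.01 for 769-P against 786-O and -0.02 beside -0.10 for 769-P against CAKI-2. The comparisons share lines and are not independent.

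**Figure D3:**
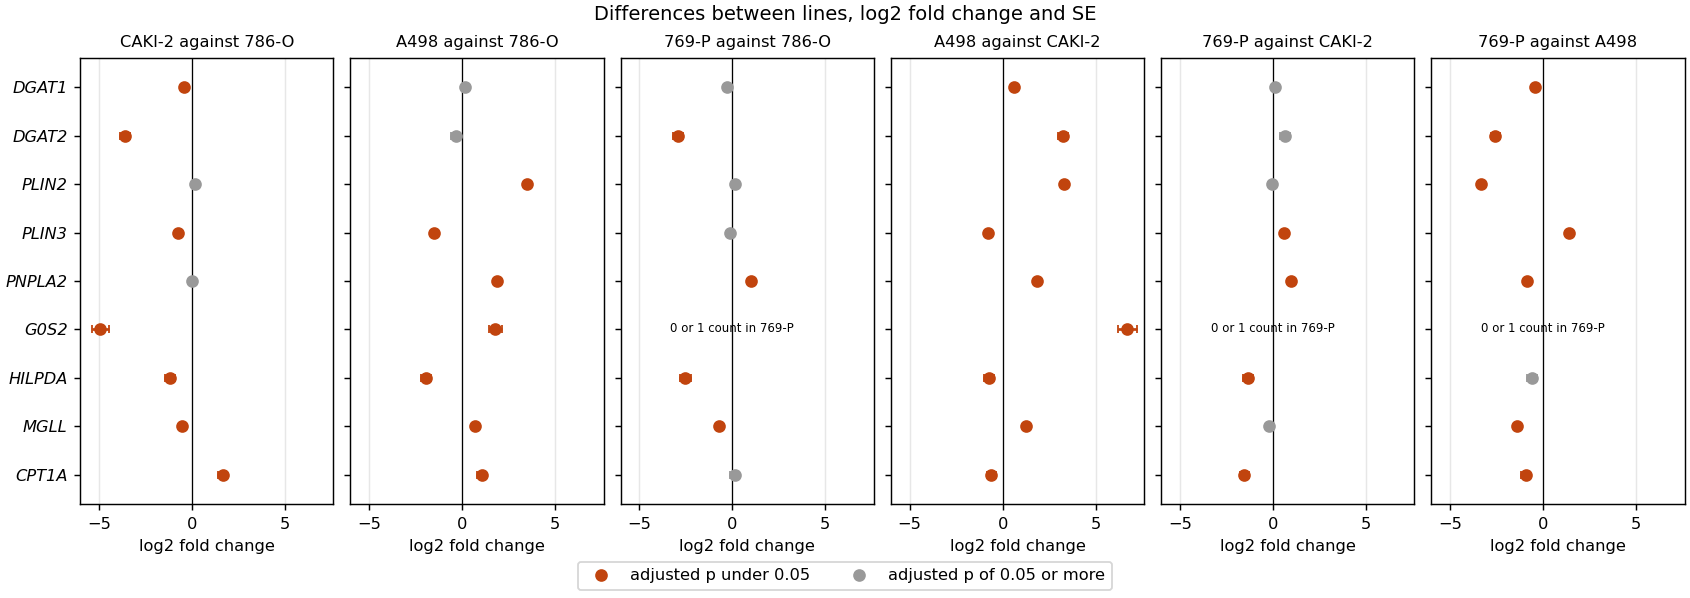
Each panel plots the log2 fold change of 1 pair of lines for the 9 genes tested, with bars for the SE and colour for an adjusted p under 0.05. PLIN2 lies at 3.48 and 3.29 in A498 against 786-O and CAKI-2, with PLIN3 at -1.52 and -0.80, and G0S2 is not drawn against 769-P, where it had 0 or 1 count per library.

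Of 74 further genes of lipid handling, listed by role, 63 were tested and 62 differed between lines in the F-test, all but the seipin gene BSCL2 (adjusted p = 0.0912). That is 98.4% of the list beside 90.5% of all genes tested. For CAKI-2 against 786-O 69.8% of the 63 were called beside 63.3% of all genes, for A498 against 786-O 76.2% beside 68.7%, and for 769-P against 786-O 71.4% beside 50.0%. The shares were 69.8% beside 65.8% for A498 against CAKI-2, 88.9% beside 63.8% for 769-P against CAKI-2 and 76.2% beside 69.9% for 769-P against A498. Several genes were read in some lines and not in others. CPT1C, a neuronal relative of CPT1A, had 4478 counts over the 5 CAKI-2 libraries (27.5 CPM) and 0 over the 5 of 786-O, or at least 1297-fold higher with a floor of 3 counts over the line. LPL, lipoprotein lipase, had 381 counts in CAKI-2, 1 in 769-P and none in 786-O or A498 (at least 110-fold higher than in 786-O). SLC27A2, a fatty acid transporter, averaged 9.63 CPM in 769-P and 3.40 CPM in CAKI-2 but had 1 count in 786-O and 2 in A498. PPARGC1A, a coactivator of mitochondrial genes, averaged 33.1 CPM in 769-P and 12.9 CPM in CAKI-2, and 0.859 and 0.834 CPM in 786-O and A498. SLC27A5 averaged 12.01 CPM in A498 and 0.170 CPM in 786-O.

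Among the other coat and growth genes, CIDEC, which fuses droplets, had 299 counts in 769-P and 128 in A498 (3.90 and 1.69 CPM), 2 in CAKI-2 and 0 in 786-O, so 769-P was at least 184-fold and A498 at least 78.9-fold higher than 786-O. PLIN4 averaged 13.6 CPM in A498, 1.61 CPM in CAKI-2, 0.493 CPM in 769-P and 0.335 CPM in 786-O (A498 over CAKI-2 3.01, SE 0.23, adjusted p = 5.03e-08). PLIN1, the adipocyte perilipin, averaged 1.24 CPM or less in each line, with 3 counts in all in 769-P. PLIN5, the perilipin of oxidative tissue, had 100 counts in CAKI-2, 9 in A498 and none in 786-O or 769-P. A498 thus had the highest mean of PLIN1, PLIN2 and PLIN4, and CAKI-2 of PLIN5.

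Other genes were high in 786-O. ACSL5, an acyl-CoA synthetase, averaged 3.54 CPM there and 0.0481 to 0.433 CPM in the other lines. FABP3 averaged 2.67 CPM against 0.213 to 1.02 CPM, and CAV1, the caveolin gene, 614 CPM against 224 to 330 CPM. LIPE, hormone-sensitive lipase, was read in 786-O and CAKI-2 (2.62 and 2.37 CPM) and little in A498 and 769-P (0.375 and 0.0785 CPM), and SOAT2 stood at 0.741 CPM in 786-O against 0.178 CPM in CAKI-2. FABP5 was lowest in A498 (7.22 CPM against 53.8 CPM in 786-O) and ACSL1 lowest in 769-P (8.51 CPM against 64.4 CPM). ACADM, a β-oxidation dehydrogenase, was highest in 769-P (99.7 CPM) and lowest in A498 (23.8 CPM), where SLC25A20, the carnitine carrier, was highest (20.9 CPM). PNPLA3 stood at 4.98 CPM in 769-P and 0.886 CPM in A498, and MOGAT3 had 28 counts or fewer in any line. Among these genes, named for the size of their line differences, the lines thus differed in which carriers, coats and oxidation genes were read at all. No such share was taken over all genes.

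**Figure D4:**
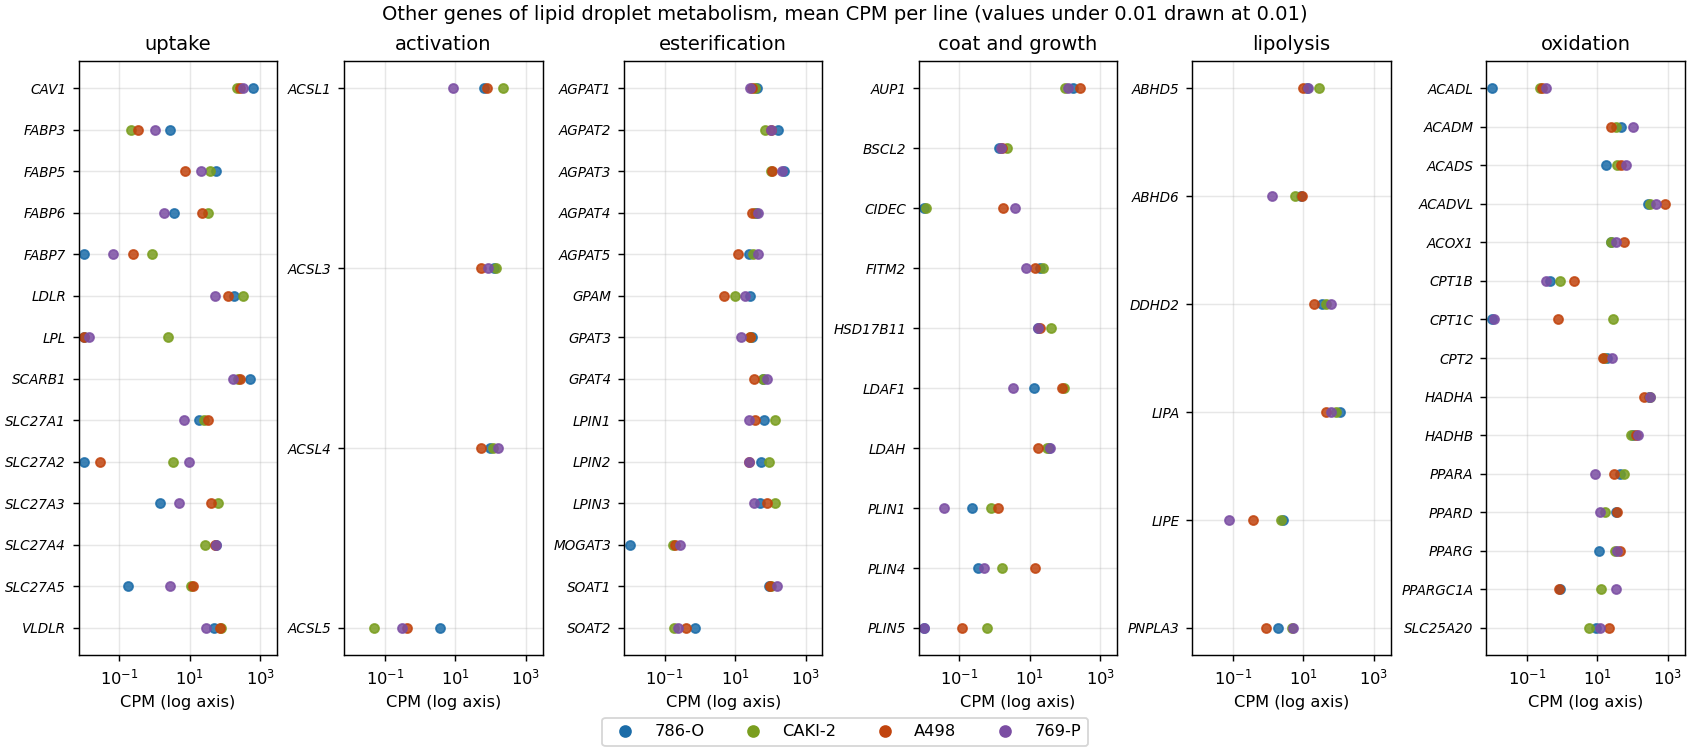
Points give the mean CPM per line on a log axis, over all libraries of the line, for the 63 tested genes of lipid handling outside the 10 members, in panels by role, with values under 0.01 CPM drawn at 0.01. CPT1C, LPL, SLC27A2, CIDEC and PLIN5 span from no or single counts to clear levels between lines.

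The guides asked whether loss of KDM5C or KDM5D moved these genes. For sgKDM5C against sgCtrl, 0 of 9 members were called in 786-O (background 0.00991%), CAKI-2 (background 0.0%), A498 (background 0.00496%) and 769-P (background 0.00496%) or as the mean of 4 lines (background 0.00991%). No member was called for a difference between lines in this effect (background 0.0%), and 0 had an unadjusted p under 0.05 (background 2.29%). In the same edgeR test, 1 member in 786-O (background 2.92%) and 1 in 769-P (background 3.32%) had an unadjusted p under 0.05, and 0 in CAKI-2 (background 1.94%), A498 (background 5.54%) and the mean (background 5.18%). DESeq2 also called 0 members in each of these. None of the 63 other lipid genes was called either, with 0 to 4 of them at an unadjusted p under 0.05 in these comparisons.

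In 786-O, PLIN2 was above its control in both sgKDM5C libraries, by 0.49 (log2, SE 0.22, adjusted p = 1), and above it in both sgKDM5D libraries as well (0.34, SE 0.22, adjusted p = 1). Without the 786-O sgKDM5C 4 library the first value was 0.30 (adjusted p = 1). Both contrasts rest on the same control library, which held the lowest PLIN2 of the line. In 769-P, MGLL was below its control in both sgKDM5C libraries, 177 and 207 CPM against 258 CPM (-0.43, SE 0.15, adjusted p = 1). Over the 8 sgKDM5C libraries, DGAT1 was below its control in 7 and PNPLA2 in 6, HILPDA above in 6 and PLIN2 above in 5. PLIN3, DGAT2, CPT1A and MGLL were split 4 to 4. Both guides of a line share its control library, so these are not 8 independent values, and no such tally was made over all genes. The mean changes were -0.20 for DGAT1 (SE 0.10, 95% interval -0.41 to 0.02, adjusted p = 0.901), -0.14 for PNPLA2 (SE 0.11, adjusted p = 0.905), 0.25 for HILPDA (SE 0.19, adjusted p = 0.901) and 0.16 for PLIN2 (SE 0.11, adjusted p = 0.901). Without the 786-O sgKDM5C 4 library the HILPDA mean was 0.11 and its 786-O value went from 0.53 to -0.03. The HILPDA mean was 0.0034 without the guide 4 libraries and 0.45 without those of guide 5, none of these called. Without the guide 4 libraries the PNPLA2 mean was -0.06, and without the 786-O line the PLIN2 mean was 0.05.

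G0S2 had the largest single changes. It was lower than control in both sgKDM5C libraries of 786-O (-0.94, SE 0.49, adjusted p = 1) and in both of A498 (-0.62, SE 0.48, adjusted p = 0.913), while CAKI-2 was split around its control (-0.07, SE 0.74, adjusted p = 1). It was also lower in all 4 sgKDM5D libraries, with log2 ratios from -1.72 to -0.08. In CAKI-2 these rest on 13 and 8 counts (guides 2 and 4) against 40 in the control. Both guides of a line share 1 control library, and no such tally was made over all genes. The call for G0S2 depended on the fit: with the 3 A498 libraries alone, 1 of them the control, it was called (-0.64, SE 0.17, adjusted p = 0.01), in a fit that called 348 genes against 1. With no filter on low genes it was called in 786-O (-0.93, SE 0.24, adjusted p = 0.0263), where 136 genes were called against 2. The 786-O value was -0.35 without the guide 4 libraries of sgKDM5C and -1.97 without those of guide 5. Each of these sets 1 library against 1 control, with a spread taken from the sgKDM5D pairs alone, so no p is given.

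For sgKDM5D against sgCtrl, 0 of 9 members were called in 786-O (background 0.0149%) and in CAKI-2 (background 0.0%), and none had an unadjusted p under 0.05 (background 1.82% and 0.768%), nor did DESeq2 call any. DGAT2 was below control in all 4 libraries, with log2 ratios of -0.93 to -0.15. In CAKI-2 these rest on 15 and 22 counts (guides 2 and 4) against 43 in the control. In 786-O the ratios were -0.15 and -0.17 (guides 2 and 4), beside 0.41 and -0.22 in its sgKDM5C libraries (guides 4 and 5). Libraries of a line share 1 control, and no such tally was made over all genes. Between sgKDM5C and sgKDM5D, 0 members were called in 786-O (background 0.0644%) and in CAKI-2 (background 0.0%), with 1 of 9 in each at an unadjusted p under 0.05 (background 4.78% and 3.38%) and 0 in each by DESeq2. In 786-O that gene was CPT1A, at 32.1 and 15.1 CPM in sgKDM5C against 9.46 and 14.1 CPM in sgKDM5D (1.003, SE 0.28, adjusted p = 0.489). The value was 1.45 without the sgKDM5C guide 5 libraries and 0.36 without those of guide 4. Either fit leaves 1 sgKDM5C library per line and takes its spread from the sgKDM5D pairs alone. The first called CPT1A (adjusted p = 0.00544) among 444 genes, against 13 with all libraries, and its lone 786-O library was sgKDM5C 4, the one farthest from its control. In CAKI-2 it was DGAT2, at 1.32 and 2.003 CPM against 0.585 and 0.777 CPM (1.299, SE 0.36, adjusted p = 0.787).

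Over the 4 lines together, guide 4 of sgKDM5C had 3 members at an unadjusted p under 0.05, G0S2 (-0.97, SE 0.28, adjusted p = 0.382), HILPDA (0.47, SE 0.16, adjusted p = 0.452) and PLIN3 (-0.24, SE 0.11, adjusted p = 0.485). None was called, where 0.0361% of all genes were, and 10.1% of all genes had an unadjusted p under 0.05. Guide 5 had 0 at either threshold (background 0.0% and 2.54%). In the direct comparison of guide 5 with guide 4, again with 0 called (background 0.0%), HILPDA (-0.46, SE 0.16, adjusted p = 0.737) and PLIN3 (0.31, SE 0.11, adjusted p = 0.737) had an unadjusted p under 0.05 (background 6.59%). DESeq2 called 0 members in all 3 of these comparisons, beside 42 genes for guide 4, 12 for guide 5 and 2 for the direct comparison.

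Over 9 alternatives, some with a library or line left out, the guide 4 values of these 3 members kept their sign. They ran from -1.40 to -0.40 for G0S2, 0.27 to 0.59 for HILPDA and -0.33 to -0.098 for PLIN3. The 786-O sgKDM5C 4 library held the highest PLIN2, HILPDA, DGAT2, CPT1A and MGLL and the lowest PLIN3 and G0S2 of the 5 libraries of its line, 7 of 9 members, while 57.6% of all genes had their highest or lowest value of the line there. Other libraries held more, each among 3 of its line. The 769-P sgKDM5C 4 library held an extreme in 8 of 9 members (80.7% of all genes), as did A498 sgKDM5C 5 (71.8%). The log2 ratios of 786-O sgKDM5C 4 to its control were 0.67 for PLIN2, 0.93 for HILPDA, 0.76 for CPT1A, -0.67 for PLIN3 and -1.96 for G0S2. KDM5C was also lowest in it, at 26.2% of control, and whether this bears on the lipid genes was not tested.

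**Figure D5:**
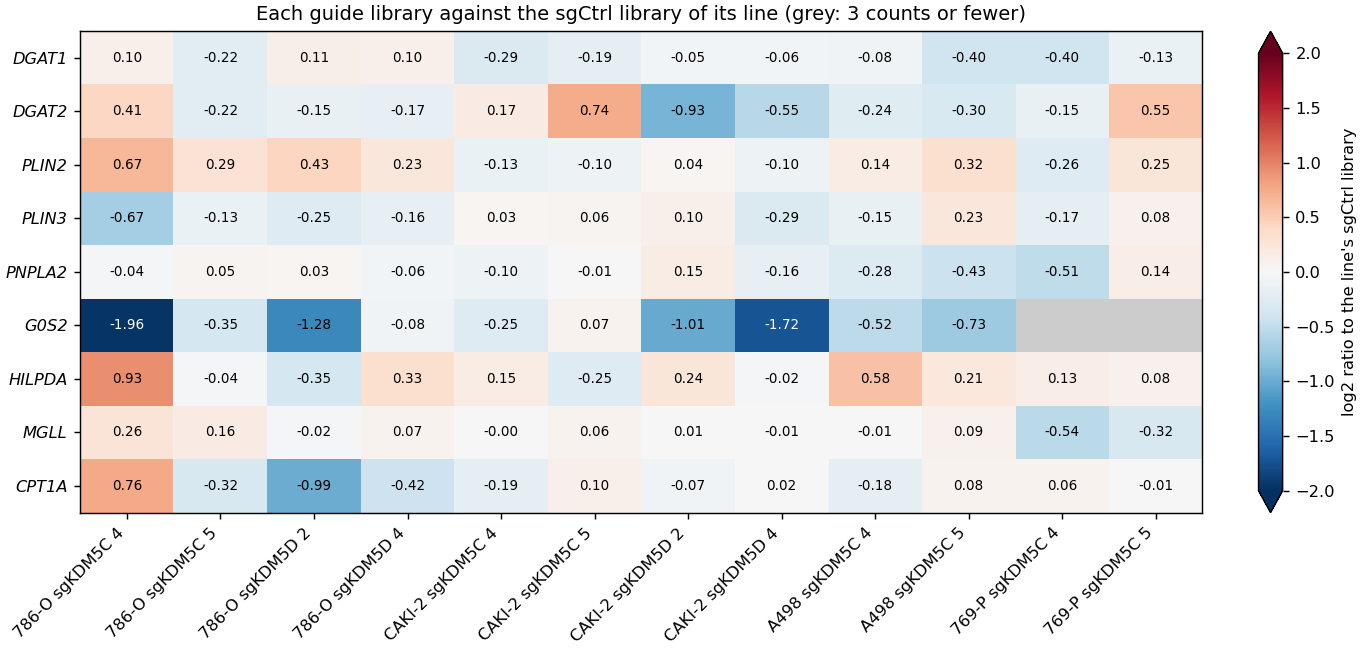
Cells give the log2 ratio of each guide library to the sgCtrl library of its line for the 9 genes tested, with grey for 3 counts or fewer. The 786-O sgKDM5C 4 column runs from -1.96 for G0S2 to 0.93 for HILPDA, and DGAT1 is below 0 in 7 of the 8 sgKDM5C columns. Columns of a line share its control library.

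As a description, the genes whose log2 CPM ran most like each member over the 16 libraries were found among 11349 genes with a mean of at least 5 CPM. SELENBP1 was closest to PLIN2 (Pearson r = 0.991), with 47.7 CPM in A498, 0.0137 CPM in 769-P and no count in 786-O and CAKI-2. PPARD, a lipid-sensing nuclear receptor gene, was closest to G0S2 (r = 0.984), and ACADVL, very long-chain acyl-CoA dehydrogenase, was second to INPP5K for PNPLA2 (r = 0.981 and 0.984). ZEB2 was closest to DGAT2 (r = 0.972), FURIN to PLIN3 (r = 0.9748), HIPK1 to HILPDA (r = 0.958), ERGIC3 to DGAT1 (r = 0.947), NGEF to CPT1A (r = 0.979) and ALKBH5 to MGLL (r = 0.985). Libraries of a line share their line, so such values mostly repeat the order of 4 lines. Among the members, PLIN2 and PNPLA2 had r = 0.853 over the 16 libraries and 0.285 after the mean of each line was taken out, and PLIN2 and G0S2 had 0.559 and -0.666.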

How the data were processed

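Bulk RNA from 16 libraries in 10 groups of 4 cell lines was sequenced as stranded, paired-end libraries. The authors deposited 1 table of raw read counts per Ensembl gene, not normalized, and the submitters' processing notes name Trimmomatic 0.38, STAR 2.5.2b and GRCh37. The counter used, its annotation and whether it read strand are not given in the sources used here, and reads of overlapping genes could be split differently under other settings. Columns were matched to samples by name, with the header shifted by 1 column. Depth was 23.4M to 41.6M counts. Of the 57773 genes, 55538 matched GENCODE 44 lifted to GRCh37, which gave symbols, exon lengths and positions.

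Genes with at least 60 counts over the libraries were tested with edgeR 4.0.16 (R 4.3.3) by the quasi-likelihood F-test after TMM scaling (factors 0.935 to 1.07), fitting each group's mean with 6 degrees of freedom left, and p-values were Benjamini-Hochberg adjusted over all 20175 genes (19364 for the guide comparisons, fitted on 12 libraries). The level of a line was the mean of its sgCtrl and sgKDM5C group means. The SE of a log2 fold change was its absolute value divided by the square root of F. Fits were tested on simulated data. Alternatives were DESeq2 1.42.0, RLE size factors, other filters, a replicate block, single lines and left-out libraries. No source used here says whether libraries of a group came from separate cultures, so p-values measure only the spread between these libraries. Intervals and floors (3 counts, 95% confidence) cover counting error only. The members and lists were chosen with earlier results of these data known. Named were all 10 members, lipid genes by the size of their line differences and, per member, the genes most like it. Promoters are from RefSeq (GRCh38.p14).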

Additional observations from a re-analysis of the deposited data

How the results depend on the processing

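Over 20 comparisons, 1605 of 1631 alternative values of single members kept their side of the threshold, 3 lost a call, 23 gained one and none reversed among called values. A further 97 changed sign while called in neither fit. Of 182 member counts, 176 stayed within 1.5 times. The exceptions all rose from 0. Without a filter on low genes, 1 member was called for sgKDM5C in 786-O (G0S2), 1 for guide 4 (G0S2), 1 for sgKDM5C against sgKDM5D in 786-O (CPT1A) and 2 in CAKI-2 (DGAT2 and G0S2), and with the A498 libraries alone 1 was called there (G0S2). These settings raised calls over all genes too: to 136 from 2, 322 from 7, 297 from 13, 109 from 0 and 348 from 1, in that order. Leaving out replicates gave 0 to 1 for sgKDM5C against sgKDM5D in 786-O, beside 444 genes from 13 without guide 5. The cause was not tested. Fits without guide 4 or guide 5 of sgKDM5C in all lines leave 1 library in each sgKDM5C group, assumed to vary like the sgKDM5D pairs. Guide numbers did not pair the samples (r of deviations between lines -0.17 to 0.19), and the replicate block gave 0 calls for each guide comparison it was fitted to and moved 769-P against A498 from 8 to 9. Leaving out both guide 4 groups at once was not run, since it leaves no residual degrees of freedom. Each line had 1 control library, which limits every guide comparison, and G0S2 in 769-P and CD36 in all lines had too few counts for a fold change.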
